A study of Mus musculus with 11 samples.

Results

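The interleukin 1 (IL-1) family and its receptors were followed here in RAW cells, a mouse macrophage-like line. The 10 genes were taken by symbol from the deposited table of 52143 genes: the ligands Il1a, Il1b, Il18 and Il33, the receptor antagonist Il1rn, the soluble inhibitor Il18bp, and the receptor chains Il1r1, Il1r2, Il1rap and Il1rl1. The cells carried either a control hairpin (shC) or a hairpin against GIV (shGIV), the protein also called Girdin, which the gene Ccdc88a encodes. Each line was sequenced without and with lipopolysaccharide (LPS, 100 ng/ml for 5 h), a component of the bacterial outer membrane that Toll-like receptor 4 detects. The comparison of the lines asks what the loss of GIV does to the LPS response of macrophages, and the labels do not say whether each line is 1 clone or a pool.

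Control cells without LPS gave 3 libraries, control cells with LPS 1 library (replicate 2), depleted cells without LPS 3 libraries and depleted cells with LPS 3 libraries. Another control library with LPS, replicate 3, is not analysed here. Values are TPM, transcript levels scaled to gene length and to the library's total, so that levels of different genes can be set side by side. Differences were tested on the log2(TPM + 1) scale, on which the change of a gene of low level is understated. Standard errors (SE) and p-values come from limma, fitted to all 4 groups with Benjamini-Hochberg adjustment over 13711 genes, and a gene was called changed at an adjusted p under 0.05. Every comparison that uses control cells with LPS rests on a lone library, whose spread is taken to equal that of the remaining groups. The replicate numbers are the set numbers of the labels, which do not say what a set is. In control cells the library with LPS is of set 2, and the fitted libraries without LPS are of sets 1 and 3. Within control cells LPS and set therefore cannot be told apart, and the comparison of the LPS responses of the lines shares this limit.

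The control library without LPS labelled set 2 (replicate 2 here) stood apart. Protein-coding genes made up 7.81% of its summed TPM, where the other 9 libraries had 74.1 to 81.7%. The annotated microRNA gene Mir6236 made up 57.8% of it, where the others had 3.79 to 8.78%. This library is left out of the fit and its values are given apart. In the other 9 libraries, summed macrophage markers ranged from 17686 to 19322 TPM without LPS and from 11786 to 14165 TPM with LPS. Of these 8 genes, Mertk alone was under 1 TPM in every library, and Lyz2 made up most of the sum. On average Lyz2, Csf1r and Cd68 were lower with LPS in both lines, while Adgre1, Itgam, Fcgr1 and Cd14 were higher. The defining markers of mast cells summed to at most 0.0759 TPM, with 3 of 6 listed at 0 in all 9 libraries. Neutrophil markers summed to 1.17 to 3.95 TPM without LPS and 13.4 to 17.6 TPM with it, and S100a8 made up most of both sums. All 6 markers of T cells, of epithelial cells and of fibroblasts stayed below 1 TPM in every library. B cell markers summed to 0.182 to 1.30 TPM, and endothelial markers to 2.98 to 5.85 TPM, a sum that Vwf led in control and depleted cells without LPS. Ccdc88a, the targeted gene, was at 10.0 and 7.69 TPM in control cells without LPS and at 6.93, 5.31 and 5.58 TPM in depleted cells, a log2 difference of -0.50 (SE 0.15) with a limma adjusted p of 0.232. With LPS it stood at 5.77 TPM in control cells and at 3.08, 2.62 and 3.39 TPM in depleted cells, a log2 difference of -0.75 (SE 0.19) with a limma adjusted p of 0.0681. Among the 9 fitted libraries the targeted mRNA was thus lower in every depleted than in every control library under the same condition, but neither difference was called. The library set apart held 1.18 TPM of Ccdc88a, below all depleted libraries without LPS.

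IL-1α and IL-1β are the founding ligands of the family. Both bind the receptor chain IL-1R1, which then recruits the accessory protein encoded by Il1rap, and the adaptor MyD88 carries the signal to NF-κB, the same adaptor that Toll-like receptors use. Il1rn encodes a ligand that occupies IL-1R1 without recruiting the accessory chain, and Il1r2 encodes a decoy receptor without a signalling domain. IL-18 and IL-33 use related receptors, and IL-33 binds ST2, the product of Il1rl1, again with the accessory protein. IL-1β and IL-18 are made as precursors that caspase-1 cleaves inside inflammasomes, so mRNA level and secreted cytokine are separate quantities, and only mRNA was measured here.

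Il1a and Il1b lie next to each other on mouse chromosome 2, on the minus strand, within 72 kb (GRCm38, Il1a at 129299610 to 129309972 and Il1b at 129364570 to 129371139). Il1rn lies on the same chromosome at 24336853 to 24351494, and Il33 on chromosome 19 at 29925114 to 29960718. The promoter windows of Il1b, of the 2 genes that differed between the lines with LPS (Il1a and Il33) and of the antagonist Il1rn are shown because the results turn on these genes. Each runs 5′ to 3′ from 250 bases before to 50 bases after an annotated start site, as given by RefSeq on GRCm38.p6, which had windows for all 10 genes, and capitals mark the matches to the searched motifs. The windows are chr2:129309923-129310222 (minus strand, Il1a), chr2:129371090-129371389 (minus strand, Il1b), chr2:24336610-24336909 (plus strand, Il1rn, the first of 3 start sites) and chr19:29945540-29945839 (plus strand, Il33, the second of 2 start sites).
Il1a: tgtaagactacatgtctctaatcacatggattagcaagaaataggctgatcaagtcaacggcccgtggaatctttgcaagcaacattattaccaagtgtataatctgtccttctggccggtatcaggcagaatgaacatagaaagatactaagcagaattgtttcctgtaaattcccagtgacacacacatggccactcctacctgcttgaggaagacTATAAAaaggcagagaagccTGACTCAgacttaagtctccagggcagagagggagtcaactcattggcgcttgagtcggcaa
Il1b: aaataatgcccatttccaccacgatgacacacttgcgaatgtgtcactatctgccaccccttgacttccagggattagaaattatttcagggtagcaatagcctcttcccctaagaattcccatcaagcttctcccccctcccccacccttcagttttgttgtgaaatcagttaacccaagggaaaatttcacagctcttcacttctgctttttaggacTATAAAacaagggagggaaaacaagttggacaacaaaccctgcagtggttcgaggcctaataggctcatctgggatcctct
Il1rn: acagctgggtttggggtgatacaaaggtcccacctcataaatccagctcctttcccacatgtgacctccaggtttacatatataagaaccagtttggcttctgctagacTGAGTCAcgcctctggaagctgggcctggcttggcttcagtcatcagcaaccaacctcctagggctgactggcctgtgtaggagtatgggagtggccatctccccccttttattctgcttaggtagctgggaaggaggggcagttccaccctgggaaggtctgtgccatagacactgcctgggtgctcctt
Il33: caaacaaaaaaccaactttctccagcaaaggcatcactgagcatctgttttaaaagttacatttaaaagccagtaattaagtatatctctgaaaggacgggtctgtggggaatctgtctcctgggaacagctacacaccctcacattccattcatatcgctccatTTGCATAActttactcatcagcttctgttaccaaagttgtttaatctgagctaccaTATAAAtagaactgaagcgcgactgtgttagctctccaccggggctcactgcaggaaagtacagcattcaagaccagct
The TATA box TATAAA, which positions the transcription machinery, began 32 bases before the start site of Il1a, 31 before that of Il1b and 29 before the shown start site of Il33, all on the sense strand. Over all 15 windows of the 10 genes and both strands, 6 windows, of Il1a, Il1b, Il1rn, Il18 and Il33 (both windows), held a TATA box somewhere, while 13.6% of 32851 RefSeq windows of the same length did. The TATAAA of Il18 (175 bases before its start) and of the third Il1rn window (15 bases after its start) were on the minus strand, and none lay in the printed Il1rn window. The AP-1 motif TGANTCA was found in 1 window each of Il1a, 12 bases before the start, and of Il1rn, 141 before, against 7.81% of all windows. The C/EBP motif TTGCNNAA was found in 1 window each of Il33, Il1r1, Il1rl1 and Il18bp, against 10.8% of all windows. The κB motif matched in Il1r1 alone (8.46% of all windows), the interferon response core GAAANNGAA in Il1rap alone (8.56%) and the GAS motif TTCNNNGAA in Il1r2 alone (8.30%). No searched motif overlapped another in the printed windows, and these matches describe letters in short windows only.

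LPS raised the mRNA of all 4 ligands, of the antagonist, of Il18bp and of the accessory chain Il1rap in control cells, and no gene of the family was called lower. In all, 7 of the 8 genes that passed the filter on low values rose (a gene passed with a log2 value of 1 or more in 2 or more libraries), where 14.8% of all tested genes rose and 44.1% fell. The other tested gene was Il1rl1. Il1a, Il1b and Il33 passed the filter only through the libraries with LPS, where they are high, so they had to differ. The LPS calls and p-values of these genes are therefore a description. The counts and medians over the tested genes are also a description and no support for a rise of the family. In bulk RNA, more cells with a transcript and more transcript per cell cannot be told apart. In depleted cells the same 7 genes rose and 1, Il1rl1, fell, where 15.8% of all tested genes rose and 59.7% fell. Under TMM scaling the split over all genes was more even, with 3672 higher and 3636 lower in control cells in place of 2025 and 6050. The median log2 change over the 8 genes was 3.31 in control and 3.96 in depleted cells, against -0.40 and -0.54 over all tested genes. With the library that stands apart in the fit, 5 rose in control cells, where Il18 (adjusted p = 0.0595) and Il1rap (0.227) were no longer called, and 6 rose in depleted cells, where Il1rap (0.124) was not.

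**Figure D1:**
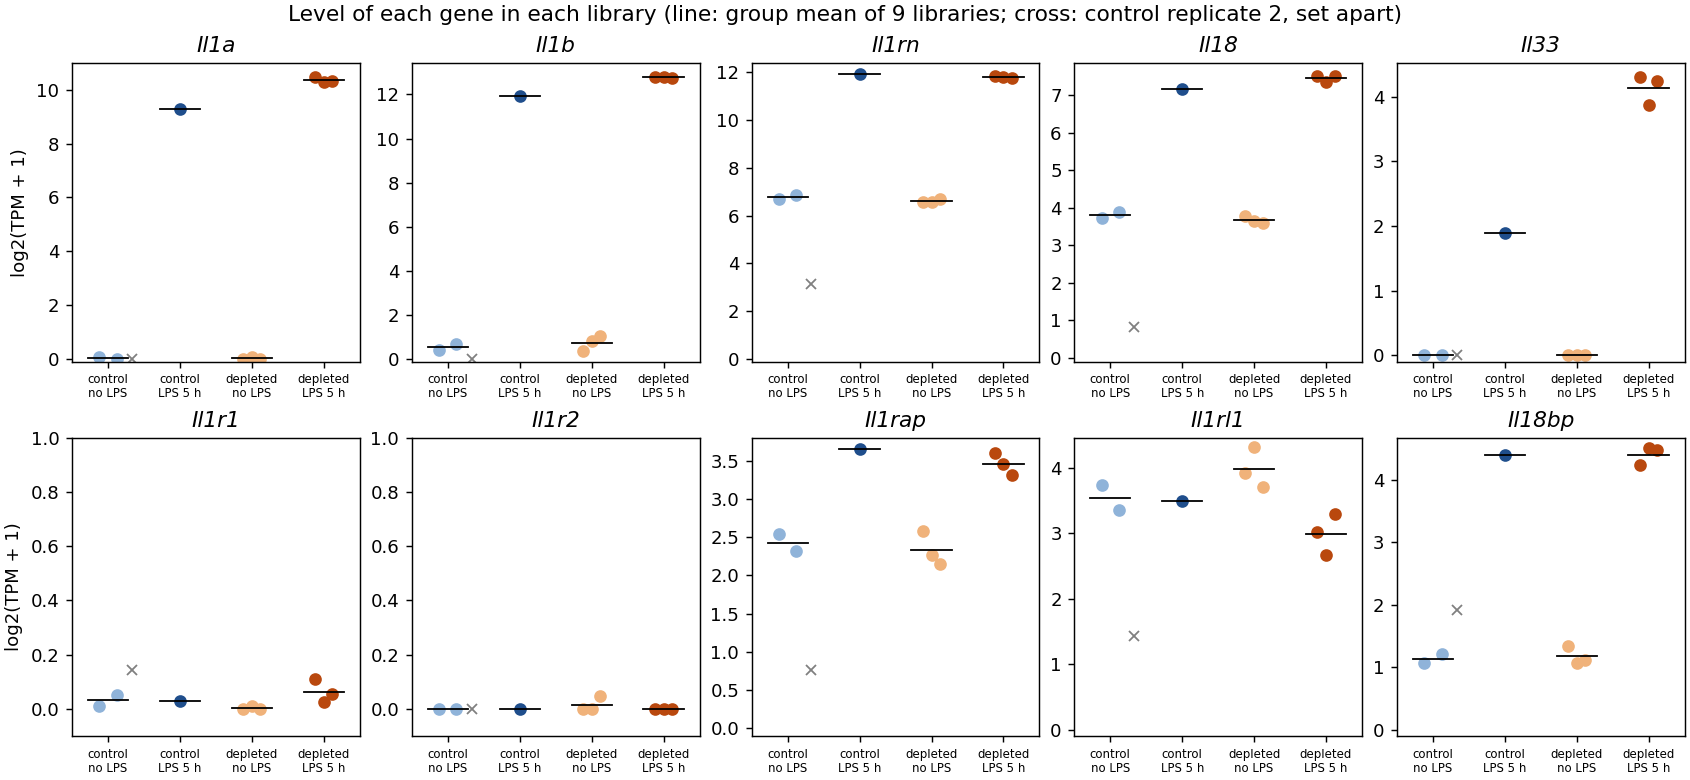
Level of each of the 10 genes, as log2(TPM + 1), in each library (points) by group. The line is the mean of the fitted libraries of that group, a lone library for control cells with LPS. The cross is the control library set apart. Il1a, Il1b, Il1rn, Il18, Il33, Il1rap and Il18bp are higher in all 4 libraries with LPS than in all 5 without, while Il1r1 and Il1r2 stay near 0 throughout.

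Il1b, which encodes IL-1β, had the largest LPS change of all 13711 tested genes in both lines on the log2(TPM + 1) scale. With a pseudocount of 0.1 the change of Il1a exceeded that of Il1b in depleted cells, and the ratio of mean TPM, which rests on levels near 0 without LPS, was larger for Il1a in both lines. It was at 0.349 and 0.645 TPM in control cells without LPS and at 0.296, 0.768 and 1.09 TPM in depleted cells without LPS. After LPS it reached 3939 TPM in the control library and 7040, 7022 and 6954 TPM in depleted cells. All 4 libraries with LPS lay far above all 5 without, and the 3 depleted libraries with LPS lay close together, at 7005 ± 45.7 TPM (SD, n = 3), above the control library. The log2 change was 11.37 (SE 0.25) in control cells and 12.02 (SE 0.16) in depleted cells, with limma adjusted p of 6.25e-08 and 2.27e-09. Il1b passed the filter only through the libraries with LPS, so these p-values are a description. By its group mean Il1b ranked 26th in abundance of all genes in the control library with LPS and 12th in depleted cells with LPS.

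The antisense transcript Il1bos, which overlaps Il1b on the other strand and was picked out after its values were seen, rose with it. It was at 0.0879 to 0.278 TPM without LPS, at 3.46 TPM in control cells with LPS and at 11.2, 9.79 and 9.13 TPM in depleted cells with LPS. The libraries were made with a stranded kit, but the strand setting of the quantification is not given in the sources used here, so reads of Il1b and Il1bos may not be fully told apart.

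Il1a, which encodes IL-1α, was close to undetected without LPS: 0.0503 and 0 TPM in control cells, and 0, 0.0451 and 0 TPM in depleted cells. LPS brought it to 621 TPM in the control library, and to 1414, 1234 and 1287 TPM in the depleted ones. The libraries with and without LPS did not overlap, and the depleted libraries with LPS were all above the control library. On the log2(TPM + 1) scale it rose by 9.24 (SE 0.10) in control and 10.33 (SE 0.07) in depleted cells, with limma adjusted p of 1.13e-08 and 2.25e-10. That change ranked 6th among all tested genes in control cells and 2nd in depleted cells. Il1a passed the filter only through the libraries with LPS, so its p-values are a description.

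Il33 encodes IL-33, a ligand kept in the nucleus and mostly known from epithelial and stromal cells. It was listed at 0 in all 5 libraries without LPS, so no fold change is given. With LPS it reached 2.70 TPM in control cells and 18.8, 13.6 and 18.0 TPM in depleted cells. Its rise was called in both lines, with limma adjusted p of 1.55e-04 in control and 1.07e-07 in depleted cells. Il33 passed the filter only through the libraries with LPS, so both calls are a description. In control cells the value with LPS is that of a lone library. Markers of epithelial cells summed to at most 0.132 TPM and those of fibroblasts to at most 0.243 TPM in these libraries. Endothelial markers summed to 2.98 to 5.85 TPM. Which cells the Il33 mRNA came from was not tested.

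Il18 encodes IL-18, which drives interferon-γ production in lymphocytes. Unlike Il1a and Il1b, it was present without LPS, at 12.2 and 13.8 TPM in control cells and 12.8, 11.5 and 11.1 TPM in depleted cells. LPS took it to 142 TPM in control cells and 182, 161 and 182 TPM in depleted cells, again without overlap. The log2 change was 3.36 (SE 0.12) in control and 3.78 (SE 0.08) in depleted cells, with limma adjusted p of 5.63e-07 and 1.36e-08. Bco2, a neighbour on the opposite strand that overlaps Il18 and was picked out after its values were seen, rose from 1.26 to 1.86 TPM without LPS to 5.44 to 6.03 TPM with it.

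The inhibitors rose too. Il1rn, the receptor antagonist, was already abundant without LPS, at 102 and 114 TPM in control cells and 93.5, 93.6 and 103 TPM in depleted cells. LPS took it to 3897 TPM in control cells and 3669, 3533 and 3423 TPM in depleted cells, log2 changes of 5.16 (SE 0.10) and 5.18 (SE 0.07). The limma adjusted p was 3.57e-08 in control and 1.57e-09 in depleted cells, and the depleted libraries with LPS lay just below the control library. Il1rn was the most abundant of the 10 genes without LPS, and ranked 28th of all genes in control cells with LPS and 29th in depleted cells with LPS.

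Il18bp encodes a secreted protein that binds IL-18 and keeps it from its receptor. It was at 1.10 and 1.32 TPM in control cells without LPS, and at 1.54, 1.11 and 1.17 TPM in depleted cells. LPS took it to 20.2 TPM in control cells and 17.9, 21.7 and 21.2 TPM in depleted cells, log2 changes of 3.27 (SE 0.17) and 3.22 (SE 0.11). Both rises were called, with limma adjusted p of 3.21e-06 and 1.30e-07. Numa1, which overlaps Il18bp on the other strand and was picked out after its values were seen, moved the opposite way, from 64.7 to 78.0 TPM without LPS to 21.1 to 25.9 TPM with it.

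Of the receptor chains, the accessory chain and ST2 were measured above 1 TPM. Il1rap was at 4.80 and 3.99 TPM in control and 4.96, 3.82 and 3.45 TPM in depleted cells without LPS, and at 11.6 TPM in control and 11.1, 9.99 and 8.96 TPM in depleted cells with LPS. It rose by 1.23 (SE 0.20) on the log2 scale in control and 1.13 (SE 0.13) in depleted cells, with limma adjusted p of 0.00119 and 1.06e-04. Il1r1, the signalling receptor for both IL-1α and IL-1β, reached at most 0.0793 TPM in the 9 libraries. Il1r2, the decoy receptor, was listed at 0 in all of them except replicate 3 of depleted cells without LPS, at 0.0344 TPM. Both failed the filter on low values and were not tested.

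Il1rl1, the IL-33 receptor ST2, was the tested member that did not rise. It was at 12.3 and 9.19 TPM in control cells and 14.2, 18.9 and 12.1 TPM in depleted cells without LPS, and at 10.3 TPM in control and 7.13, 5.37 and 8.79 TPM in depleted cells with LPS. In depleted cells the 2 conditions did not overlap, while in control cells the library with LPS lay between the 2 without. The log2 change was -0.99 (SE 0.21) in depleted cells, called with a limma adjusted p of 0.00272, and -0.04 (SE 0.31) in control cells, not called at 0.932. The fall in depleted cells amounted to 0.44 below the median change of all genes and depended on scaling: it was -0.42 with TMM scaling (adjusted p = 0.139) and -0.35 with quantile normalization (0.211), and it was not called with the library that stands apart in the fit (0.279). In control cells TMM scaling and quantile normalization turned the sign, to 0.37 and 0.45.

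The family has 6 receptor genes that sit side by side on mouse chromosome 1 within 478 kb, in the order Il1r2, Il1r1, Il1rl2, Il1rl1, Il18r1 and Il18rap, all on the plus strand. Il1rl1 (5.37 to 18.9 TPM over the 9 libraries) and Il18rap, the accessory chain of the IL-18 receptor (2.48 to 5.46 TPM), were measured there. The other 4 stayed at or below 0.226 TPM, among them Il18r1, the ligand-binding chain for IL-18.

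**Figure D2:**
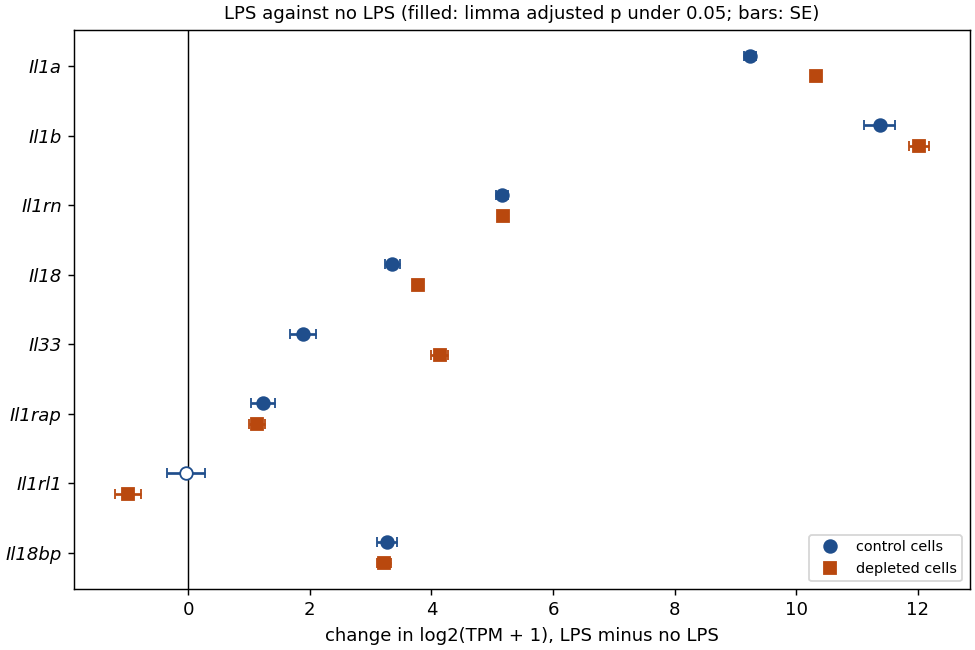
Change with LPS in log2(TPM + 1) for the 8 tested genes in control (circles) and depleted cells (squares), with the SE of the fit as bars and filled points at a limma adjusted p under 0.05. Il1b and Il1a lie farthest to the right, at 11.37 and 9.24 in control cells, and Il1rl1 lies at or below 0.

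Without LPS no difference between the lines was called in the family. None of the 8 tested genes was called higher or lower, where 0.489% of all tested genes were higher and 0.729% lower in depleted cells, and the median log2 difference of the 8 was -0.01, against 0.02 over all genes. At an unadjusted p under 0.05 the limma count was also 0 of 8. Of these 8 genes, Il33 was listed at 0 in every fitted library without LPS, Il1a reached at most 0.0503 TPM and Il1b at most 1.09 TPM. These genes could hardly be called here, and the shares over all genes are small, so the counts and the median are a description only. Il1rl1 had the largest difference, 0.44 on the log2 scale (SE 0.23), with a limma adjusted p of 0.499, and its 5 libraries overlapped between the lines. Il1rn was at 96.6 TPM on average in depleted and 108 TPM in control cells, a log2 difference of -0.16 (SE 0.07) with a limma adjusted p of 0.439.

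With LPS, Il33 and Il1a were higher in depleted than in control cells, and no member was lower. These 2 of the 8 tested genes were called, where 0.890% of all tested genes were higher and 4.38% lower in depleted cells. The median log2 difference of the 8 was 0.14, against -0.12 over all genes. Il33 was at 16.8 ± 2.84 TPM (SD, n = 3) in depleted cells and 2.70 TPM in the control library, a ratio of 6.21 and a log2 difference of 2.25 (SE 0.20), with a limma adjusted p of 0.00268. Il1a was at 1312 ± 92.4 TPM (SD, n = 3) against 621 TPM, a ratio of 2.11 and a log2 difference of 1.08 (SE 0.10), with the same adjusted p. All 3 depleted libraries exceeded the lone control library for both genes. With the library that stands apart in the fit, neither was called (adjusted p of 0.211 for Il33 and 1.00 for Il1a), and with a pseudocount of 0.1 Il1a was not (0.0696).

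Il1b was 1.78 times as abundant in depleted as in control cells with LPS, a log2 difference of 0.83 (SE 0.23) in the same direction in 3 of 3 depleted libraries, and was not called, with a limma adjusted p of 0.0861. The call changed with the processing: the adjusted p was 0.0374 with TMM scaling, 0.0290 with quantile normalization, 0.0330 in a fit of these 2 groups alone and 0.0309 without replicate 1 of depleted cells without LPS. Il1bos, the antisense transcript, differed by 1.30 on the log2 scale (SE 0.17), with a limma adjusted p of 0.00913. It was picked out after its values were seen and may share reads with Il1b, so it is no separate evidence for Il1b. Its difference between the LPS responses of the lines, 1.40 (SE 0.22), was not called, and other settings were not checked for it. Il18 differed by 0.29 (SE 0.12), with a limma adjusted p of 0.198.

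None of the inhibitors and receptors was called in this comparison. Il1rn differed by -0.14 (SE 0.09, adjusted p = 0.430 by limma), Il1rap by -0.20 (SE 0.19, adjusted p = 0.584) and Il1rl1 by -0.50 (SE 0.29, adjusted p = 0.362). Il18bp averaged 20.2 TPM in both lines. The log2 difference of Il18bp was -0.01 (SE 0.16), and that of Il1rn and Il18bp turned positive under TMM scaling, to 0.01 and 0.14. Ccdc88a, whose difference with LPS is given above, and summed macrophage markers moved with these differences, and their part in them was not tested. The marker sum was 14165 TPM in the control library and 11786 to 12341 TPM in depleted cells. Lyz2 led that sum, and among its genes above 1 TPM Fcgr1 alone was higher in depleted cells (239 TPM on average, against 208 TPM).

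**Figure D3:**
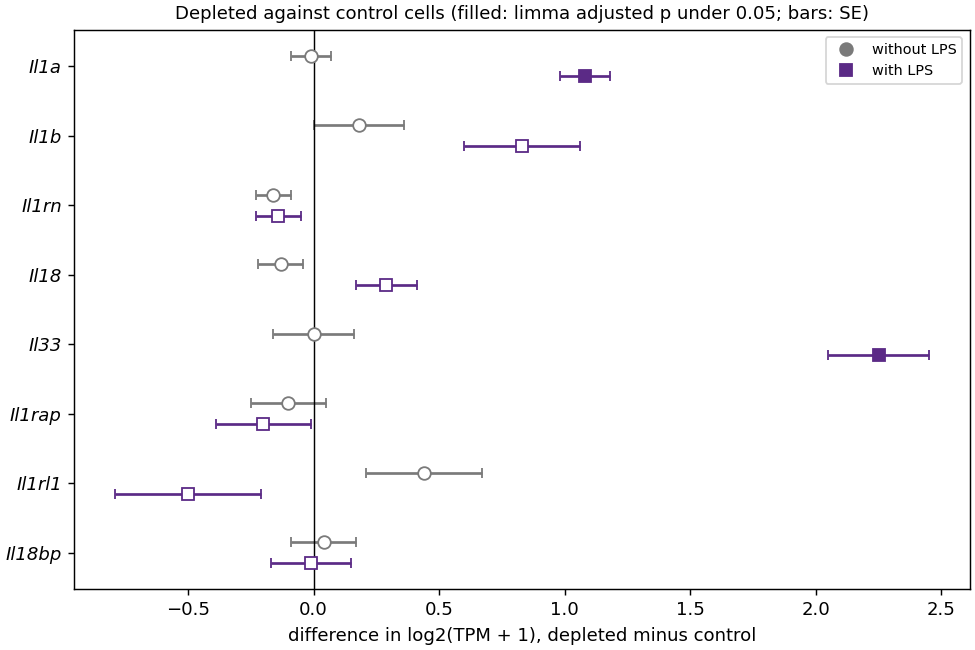
Difference between depleted and control cells in log2(TPM + 1) for the 8 tested genes without LPS (circles) and with LPS (squares), with the SE of the fit as bars and filled points at a limma adjusted p under 0.05. Il33 at 2.25 and Il1a at 1.08 with LPS are the filled points, and every value without LPS lies between -0.16 and 0.44.

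The difference between the LPS responses of the lines was tested as an interaction. For Il33 and Il1a, at or near 0 TPM without LPS in both lines, it repeats the difference with LPS (2.25 and 1.08) and is no separate evidence. Il33 and Il1a responded more in depleted cells, by 2.25 (SE 0.25) and 1.09 (SE 0.12) on the log2 scale, both with a limma adjusted p of 0.0281. That is 2 of 8 tested genes higher and none lower, where 0.0948% of all tested genes were higher and 0.131% lower. Both calls were narrow: leaving out any 1 of the 8 libraries that can be left out took the adjusted p of Il1a to between 0.0525 and 0.104 and that of Il33 to between 0.0545 and 0.104. With the library that stands apart in the fit the adjusted p was 0.715 for both, and with a pseudocount of 0.1 it was 0.169 for Il1a and 0.0840 for Il33. The value for Il1b was 0.65 (SE 0.30, adjusted p = 0.314 by limma) and that for Il18 0.42 (SE 0.15, adjusted p = 0.214). Il1rl1 gave -0.95 (SE 0.37, adjusted p = 0.253), so the fall of Il1rl1 in depleted cells alone was not shown to differ between the lines.

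The balance of antagonist and agonist mRNA differed between the conditions. Without LPS, Il1rn exceeded Il1b by 94.2 to 316 times in TPM over the 5 libraries. With LPS the ratio of Il1rn to Il1b was 0.989 in the control library and 0.521, 0.503 and 0.492 in depleted cells. The antagonist mRNA was thus about level with Il1b in control cells and at about 0.5 of it in the depleted libraries. The ratio of Il1b to Il1a with LPS was 6.35 in control and 4.98, 5.69 and 5.40 in depleted cells. The ratio of Il18bp to Il18 stayed between 0.0900 and 0.142 over all 9 libraries. These ratios are a description and were not tested.

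**Figure D4:**
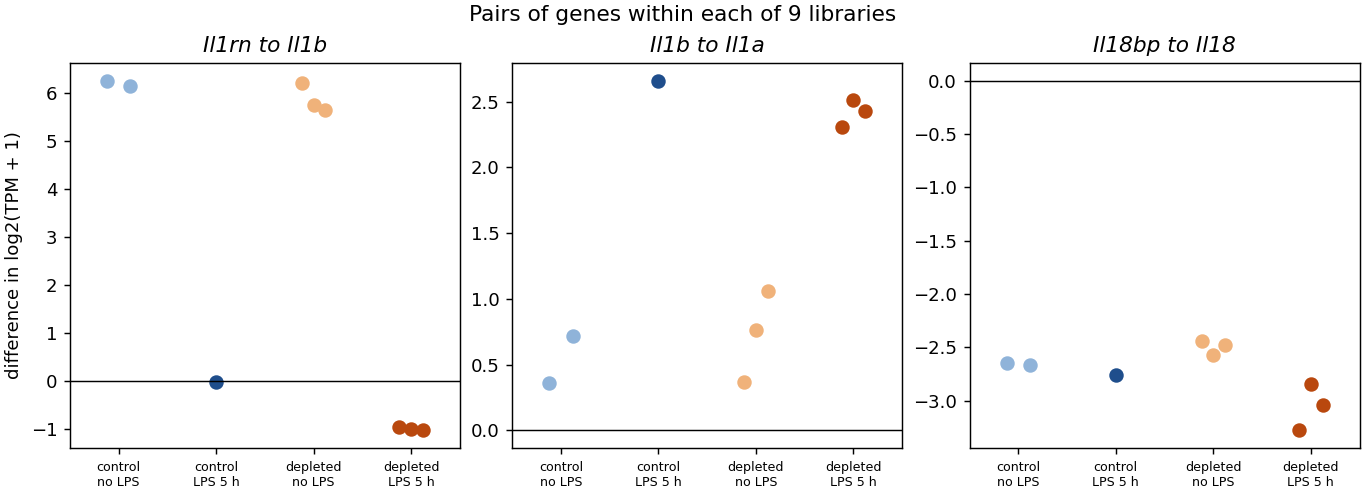
Difference in log2(TPM + 1) between 2 genes of a pair within each of the 9 libraries (points), by group, for Il1rn minus Il1b, Il1b minus Il1a and Il18bp minus Il18. The first panel falls from 5.63 to 6.25 without LPS to -0.02 in the control and -0.94 to -1.02 in the depleted libraries with LPS.

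In the library set apart, Il1rn was at 7.71 TPM, Il18bp at 2.76, Il1rl1 at 1.68, Il18 at 0.759, Il1rap at 0.696 and Il1r1 at 0.105 TPM. Il1a, Il1b, Il33 and Il1r2 were listed at 0 there. Its Il1rn, Il18, Il1rap and Il1rl1 values lay below, and its Il18bp value above, those of the other 2 control libraries without LPS.

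The genes with the profile most like each member were found by the root mean square difference of log2(TPM + 1), centred on each gene's mean, over the 9 libraries. Il33 was nearest to Tnfsf15 (0.17), a TNF family cytokine that went from 0.0341 TPM without to 1.95 TPM with LPS in control cells and from 0.112 to 16.7 TPM in depleted cells, followed by Gbp4 (0.31), an interferon-inducible GTPase. Il1a was nearest to the serum amyloid gene Saa3 (0.35) and the chemokine gene Ccl5 (0.38). The genes nearest to Il1b were Csf3, the granulocyte growth factor, at 0.86 and Il1a at 0.93. The measure is not scaled to the size of the change, so it tends to be larger for genes of large change such as Il1b. Il1rn was nearest to Mxd1 (0.06) and Nfkbiz (0.13). Il18 was nearest to Irgm2 (0.10) and Arhgef3 (0.12), Il18bp to Epsti1 (0.11) and Trim34b (0.11), Il1rap to Resf1 (0.10) and Plet1 (0.11), and Il1rl1 to Ccdc159 (0.15) and Scai (0.17).

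The other genes of the pathway were taken from 6 lists. Of 9 symbols of other IL-1 family ligands, 5 were in the table under the older Il1f names. The 2 tested ones rose with LPS in both lines (14.8% and 15.8% of all tested genes). Both passed the filter on low values only through the libraries with LPS, so they had to differ, and this count is a description only. Il1f6, which encodes IL-36α, was listed at 0 without LPS and was at 14.1 TPM in control and on average 11.6 TPM in depleted cells with LPS (limma adjusted p of 1.27e-06 and 7.35e-08). Il1f9, which encodes IL-36γ, rose by 1.84 (SE 0.16) and 2.24 (SE 0.11) on the log2 scale, with limma adjusted p of 5.01e-05 and 7.49e-07. Of 6 other family receptors, 2 were tested: in depleted cells, where 15.8% of all tested genes rose and 59.7% fell, Il18rap rose by 0.70 (SE 0.10, limma adjusted p of 3.45e-04) and Sigirr, a receptor that dampens IL-1 signalling, fell by 0.87 (SE 0.22, limma adjusted p of 0.00736). Neither was called in control cells, and Sigirr passed the filter only through depleted libraries without LPS, where it is highest.

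Of 16 tested genes of IL-1 receptor signalling, 7 rose and 3 fell with LPS in control cells (14.8% and 44.1% of all tested genes), and 6 rose and 5 fell in depleted cells (15.8% and 59.7%). Peli1, a ubiquitin ligase of the pathway, rose by 2.78 (SE 0.15) and 2.66 (SE 0.10), and Nfkbia, the NF-κB inhibitor that NF-κB itself induces, rose by 2.66 in both lines (SE 0.16 and 0.11). Irak2, a kinase of the MyD88 complex, rose by 1.90 (SE 0.17) in control and 1.42 (SE 0.11) in depleted cells, and Myd88, the adaptor, by 1.69 (SE 0.10) and 1.60 (SE 0.07). The list's median change was 0.18 in control and -0.03 in depleted cells, against -0.40 and -0.54 over all genes. With LPS, 1 gene of the list was called lower in depleted cells, Irak3, which encodes IRAK-M, an inhibitor of the pathway, with 24.2 TPM in the control library and 12.6 TPM on average in depleted cells. Its log2 difference was -0.89 (SE 0.11), with a limma adjusted p of 0.00850, and it was not called in a fit of these 2 groups alone (0.0604) or with the library that stands apart (1.00).

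Of 12 tested genes of IL-1 processing and release, 7 rose and 3 fell in control cells (14.8% and 44.1% of all tested genes), and 7 rose and 4 fell in depleted cells (15.8% and 59.7%). The list medians were 0.88 and 0.86, against -0.40 and -0.54 over all genes. The inflammasome sensor Nlrp3 rose by 3.57 (SE 0.13) and 2.96 (SE 0.08), and Casp4, the sensor of LPS inside the cell, by 3.37 (SE 0.12) and 3.70 (SE 0.08). Casp1, the protease that cleaves IL-1β and IL-18, rose by 1.96 (SE 0.10) in control and 2.34 (SE 0.07) in depleted cells. P2rx7, the ATP-gated channel that triggers NLRP3, fell by 2.07 (SE 0.17) in control cells and fell by 2.02 (SE 0.11) in depleted cells. Pycard, the adaptor that links NLRP3 to caspase-1 and that RAW cells are known to lack, reached at most 0.442 TPM and was not tested. Without LPS, Capn2, a calpain subunit, was called lower in depleted cells, by -0.44 (SE 0.07, limma adjusted p of 0.0300), a call lost on leaving out 7 of the 9 libraries in turn (0.0577 to 0.117), the exceptions being replicate 1 of control cells without LPS and the control library with LPS. Its sign turned (0.58) with the library that stands apart in the fit.

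Of 7 tested genes of cytokine mRNA decay, 4 rose and 1 fell in control cells (14.8% and 44.1% of all tested genes), and 4 rose and 2 fell in depleted cells (15.8% and 59.7%). Zfp36, which encodes tristetraprolin and binds AU-rich elements, rose by 4.60 (SE 0.12) and 4.97 (SE 0.08), and Zc3h12a, which encodes the RNase Regnase-1, by 4.06 (SE 0.13) and 3.69 (SE 0.09). Zfp36l2, a relative of Zfp36, fell by 2.47 (SE 0.16) in control cells and fell in depleted cells too (limma adjusted p of 8.79e-06 and 1.05e-06). In depleted cells with LPS Zfp36l1 was higher by 1.31 (SE 0.15, limma adjusted p of 0.00684), at 4.43 against 1.20 TPM, and Zc3h12c was lower, by -0.87 (SE 0.12, limma adjusted p of 0.0105), at 9.03 against 17.3 TPM. In a fit of these 2 groups alone neither was called (0.0521 and 0.0762). Zfp36l1 was also called without LPS, at 2.77 against 1.20 TPM (0.77, SE 0.12, limma adjusted p of 0.0312), a call lost on leaving out any library (0.0680 to 0.142) except the control library with LPS. With the library that stands apart in the fit, none of these 3 differences was called (adjusted p of 1.00 for both with LPS and 0.472 without).

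The AU-rich pentamer ATTTA, counted in the longest annotated 3′ untranslated region of each gene (a count added after the data were seen), occurred 4 times in the 459 nucleotides of Il1b, 8.71 per kb, against a median of 1.21 per kb over 10805 tested genes. Il1a held 3 (2.72 per kb), Il18bp 3 (3.48 per kb), Il1rap 9 (3.35 per kb), Il18 1 (2.99 per kb) and Il33 3 (1.79 per kb). Il1r1 held 8 (2.07 per kb) and Il1r2 1 (1.32 per kb). Below the median were Il1rl1, with 3 (0.924 per kb), and Il1rn, with none in 1864 nucleotides. The longer element TTATTTATT was in none of the 10 genes, against 8.02% of tested genes.

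Of 8 tested transcription factors known for acting at Il1b, 6 rose in control cells (14.8% of all tested genes) and 5 in depleted cells (15.8%), and none fell (44.1% and 59.7%). The list median in control cells was 1.52, against -0.40 over all genes. Nfkbiz, an atypical IκB protein that NF-κB induces, rose by 5.11 (SE 0.12) and 5.41 (SE 0.08), Atf3 by 3.12 (SE 0.17) and 2.66 (SE 0.11), and Nfkb1 by 2.40 (SE 0.10) and 2.17 (SE 0.07). Atf3, which represses inflammatory genes, was called lower in depleted cells with LPS, by -0.70 (SE 0.16, limma adjusted p of 0.0490). Its call was lost without replicate 2 or 3 of depleted cells without LPS and without any of the 3 depleted libraries with LPS (0.0778 to 0.117), with TMM scaling (0.0577) and with the library that stands apart (1.00). Apart from Irak3, Capn2, Zfp36l1, Zc3h12c and Atf3, no gene of the 6 lists was called between the lines, and none was called in the interaction test.

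Several LPS calls of the lists were lost with the library that stands apart in the limma fit. In control cells these were Nfkbia (adjusted p = 0.222), Irak2 (0.203), Casp4 (0.0858), P2rx7 (0.180), Zfp36l2 (0.495), Atf3 (0.0971) and Nfkb1 (0.147). In depleted cells they were Nfkbia (0.0863), Myd88 (0.247), Casp1 (0.220), Zfp36l2 (0.0584), Nfkb1 (0.0562) and Il18rap (0.129). Among the named genes, Peli1, Nlrp3, Zfp36, Zc3h12a, Nfkbiz, Il1f6 and Il1f9 were called with it and without it. Only up to 3 called genes with the largest change per list and comparison were checked in this way. The rises of Myd88 and Casp1 in control cells, and the changes of Irak2 and P2rx7 in depleted cells, were therefore not checked.

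**Figure D5:**
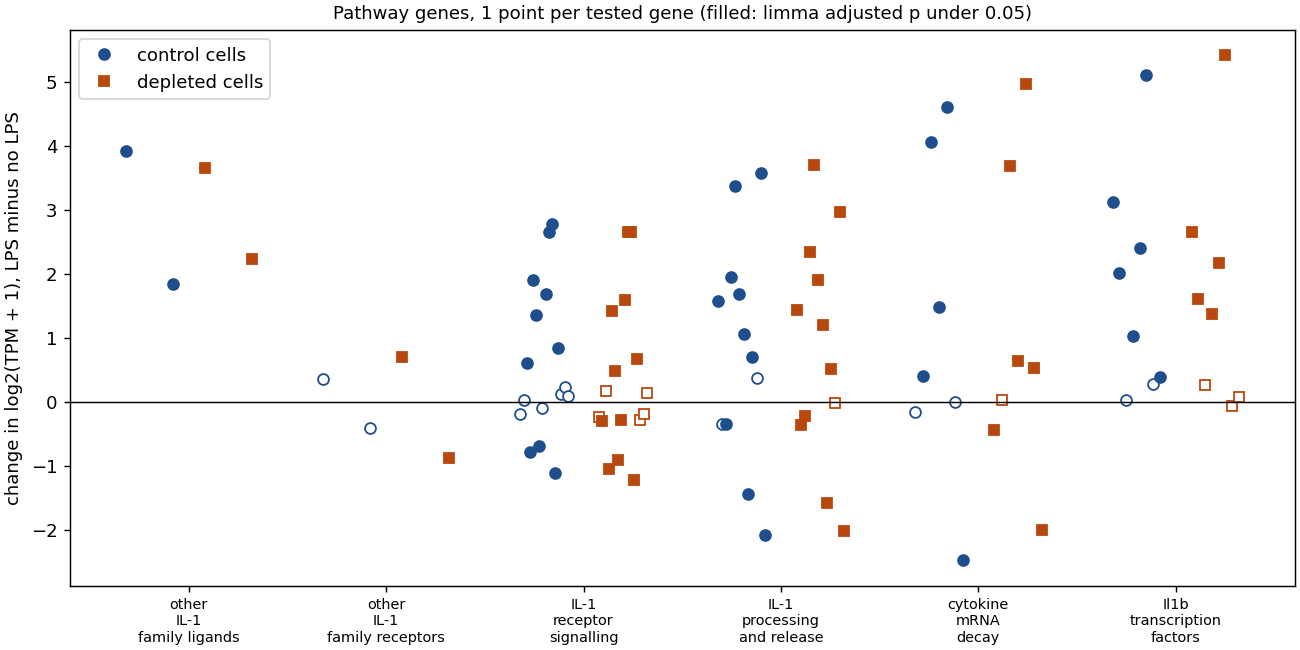
Change with LPS in log2(TPM + 1) of each tested gene of the 6 pathway lists in control (circles) and depleted cells (squares), filled at a limma adjusted p under 0.05. Nfkbiz at 5.11 and 5.41 and Zfp36 at 4.60 and 4.97 stand highest, and Zfp36l2, at -2.47 in control cells, is the lowest of the mRNA decay genes.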

How the data were processed

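RNA of mouse RAW cells was sequenced in paired reads from stranded libraries of total RNA, per the labels' protocols. The authors deposited log2 values, log2(TPM + 1) per gene, made with kallisto 0.45.0 on GRCm38, per the submitters' processing notes. The table holds 52143 genes in 10 libraries, and the labels list 11 samples. TPM keeps no read total, so the counting precision of each value is unknown. Values were turned back into TPM for the levels. limma 3.58.1 in R 4.3.3 tested 13711 genes (those with a log2 value of 1 or more in 2 or more libraries) in 1 model of 4 groups and 9 libraries, with a mean-variance trend, 5 residual degrees of freedom and a threshold of 0.05 after Benjamini-Hochberg adjustment within each comparison. The script was tested on simulated data.

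The genes, lists and tests were chosen with earlier results of these data known. Named genes are the 10 members, up to 3 called genes with the largest change per list and comparison, the 2 genes with the nearest profile per tested member, and Ccdc88a. Nothing in the labels says that replicates came from separate cultures, so p-values measure only the spread between these samples, which may be technical. Alternatives were the library set apart, the set number as a block, other filters, a pseudocount of 0.1, TMM, quantile and rescaled values, other variance settings, fits of 2 groups and leaving out each library. Gene positions and untranslated regions came from GENCODE M21, and promoter windows from RefSeq (GRCm38.p6). Overlapping genes on opposite strands may share reads, since the strand setting of the quantification is not given in the sources used here.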

Additional observations from a re-analysis of the deposited data

Results flagged for a closer look

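A difference between the LPS responses of the lines, by the interaction term of the limma fit, was called for 2 of the 8 tested members. Il1a rose by 1.09 more on the log2(TPM + 1) scale in depleted than in control cells (SE 0.12, adjusted p = 0.0281), and Il33 by 2.25 more (SE 0.25, adjusted p = 0.0281). Both rest on the lone control library with LPS, and all 3 depleted libraries with LPS lay above it for both genes. Without LPS both genes were at or near 0 TPM, so these values repeat their differences with LPS and are no separate evidence.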

How the results depend on the processing

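Over 762 values of members under alternative settings, 691 kept their direction and their side of the threshold, 31 lost and 4 gained the call, and 36 turned sign. Some of the kept values could not move: leaving out a depleted library does not alter the size of an LPS change in control cells. These counts therefore do not measure how robust a call is. Of 694 values of pathway genes, 636 were kept, 57 lost the call and 1 turned sign. The cause of these changes was not tested, except where stated. In control cells, 4 members were called higher with LPS in a fit of 2 groups, since Il1a, Il1b and Il33 then passed the filter in too few libraries. The fall of 1 member with LPS in depleted cells became 0 with 10 libraries, with TMM scaling and with quantile normalization. With LPS, 2 members higher in depleted cells became 0 with 10 libraries and 1 with a pseudocount of 0.1. The 2 members called in the interaction became 0 with 10 libraries, 0 with a pseudocount of 0.1, and between 0 and 0 on leaving out each library. Without the lone control library with LPS, 3 of the 5 comparisons have no value. Unknown read totals limit genes near 0, such as Il1r1 and Il1r2.

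With the replicate number as a block, the count of members called in the interaction was 0 (Il1a 1.06 and Il33 2.04, adjusted p = 0.221 by limma for both), and Il1rn there turned to -0.02. The block left the counts of called members in the other comparisons at 7, 7 and 1, 0 and 2, and took the calls over all genes from 122 to 22 higher and from 600 to 61 lower in depleted cells with LPS. With it no call between the lines remained among the named pathway genes: the adjusted p with LPS was 0.0628 for Irak3, 0.0619 for Zfp36l1 and Zc3h12c and 0.120 for Atf3, and without LPS 0.136 for Zfp36l1 and 0.139 for Capn2. Deviations of same-numbered depleted libraries without and with LPS correlated at 0.0617, 0.0715 and 0.0970, and those of differently numbered ones at -0.0707 to -0.00424. Same-numbered control and depleted libraries without LPS correlated at 0.0972 (replicate 1) and 0.0672 (replicate 3). Each depleted library thus correlated best with its own number, but all values were under 0.1. The main fit does not treat the numbers as pairing the samples, and the fit with the block is given beside it.

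Values that turned sign were uncalled in the fit of 9 libraries, except Capn2 without LPS, which became 0.58 with 10 libraries. With 10 libraries, Il1rl1 with LPS in control cells became 0.67, depletion without LPS became 1.06 for Il1rn, 0.87 for Il18, 0.46 for Il1rap and -0.22 for Il18bp, and the interaction became -1.19 for Il1rn, -0.58 for Il18 (0.42 with 9 libraries) and 0.21 for Il18bp. Under TMM scaling, quantile normalization and rescaled TPM, the interaction became 0.05, 0.03 and 0.04 for Il1rap and 0.11, 0.12 and 0.08 for Il18bp, and Il18bp in depleted cells with LPS 0.14, 0.15 and 0.11. Il1rl1 in control cells became 0.37 under TMM scaling and 0.45 under quantile normalization, and Il1rn in depleted cells with LPS became 0.01 under TMM scaling.

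On leaving out each library, Il1rl1 with LPS in control cells ranged from -0.23 to 0.15. Depletion without LPS ranged from -0.05 to 0.02 for Il1a, from -0.22 to 0.01 for Il1rap and from -0.04 to 0.11 for Il18bp, and depletion with LPS from -0.06 to 0.08 for Il18bp. The interaction ranged from -0.06 to 0.10 for Il1rn, from -0.21 to 0.01 for Il1rap and from -0.12 to 0.04 for Il18bp.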
